A study of Homo sapiens with 3 samples.

Results

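The ISG15 conjugation genes were taken as 6 named genes: ISG15, a small ubiquitin-like protein, UBA7, UBE2L6, HERC5 and HERC6, which encode the enzymes that attach it or are related to them, and USP18, the protease that removes it. They are 6 of the 19974 protein-coding genes that the RefSeq annotation places on chromosomes 1 to 22 and X, and their choice used no threshold on peak score. IRF3 binding was measured by chromatin immunoprecipitation and sequencing (ChIP-seq) with an anti-IRF3 antibody in BT549, a human basal-like breast cancer cell line. All cells carried Cas9 and a guide RNA from a lentivirus and had received polyI:C, an artificial double-stranded RNA that cells read as viral, by transfection. The 3 groups were cells with a control guide, with Smad3 guide 1 and with Smad3 guide 2, with 1 library each, and the comparison concerns IRF3 binding when the Smad3 gene is inactivated. In their titles the Smad3 guide samples are BT549-caSmad3 cells and the control is BT549, whereas the sample descriptions give BT549 for all 3. If the titles hold, the parent line and the guide cannot be told apart. The labels do not say whether the cells were single clones. No label gives the dose or duration of polyI:C. With 1 library in a group there was no replicate check and no test, and a difference between lists is described as a difference between those libraries.

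ISG15 is joined to lysines of target proteins through a cascade that parallels that of ubiquitin. UBA7 is the activating enzyme (E1), UBE2L6 is the main conjugating enzyme (E2), and HERC5 is the main ligase (E3) in human cells. HERC6 is its close relative, which serves as the main ISG15 ligase in mice. USP18 cuts ISG15 from its targets and, in a separate role, binds the interferon receptor chain IFNAR2 and restrains type I interferon signalling. The genes are classical interferon-stimulated genes, and IRF3, which is activated by viral RNA sensors, can bind the promoters of some such genes before interferon itself acts. IRF3 and its relatives recognise repeats of GAAA spaced by a pair of bases, the interferon-stimulated response element.

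The 3 lists held 18028 peaks in control, 16811 in guide 1 and 19609 in guide 2, with median widths of 396, 406 and 424 bp. The authors' score of a peak has no stated scale and no read counts were in the lists, so the depth was unknown and a peak was placed only by the share of its own list that scored lower, called its score percentile. The term marked is used for a gene with a peak on its annotated span or within 10 kb of it. Positions are 1-based on hg38, and the gene spans come from RefSeq GRCh38.p14, which has the same coordinates.

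The sequences before the annotated start were read from RefSeq for 4 of the 6 genes, ISG15, HERC5, HERC6 and UBE2L6; entries for UBA7 and USP18 were not used here. They are shown because the IRF3 peaks at ISG15 and HERC5 covered this stretch, whereas at UBE2L6 no list had a peak. Each run is the 250 bases before the start, 5′ to 3′ on the strand of the gene, GRCh38.p14, and capitals mark the letters GAAANNGAA on either strand (on the other strand they read TTCNNTTTC), the paired GAAA core of an IRF site. ISG15 is chr1:1013247-1013496 on the plus strand, HERC5 is chr4:88456869-88457118 on the plus strand, HERC6 is chr4:88378602-88378851 on the plus strand, and UBE2L6 is chr11:57567936-57568185 on the minus strand, at the outer of its 2 annotated starts.
ISG15: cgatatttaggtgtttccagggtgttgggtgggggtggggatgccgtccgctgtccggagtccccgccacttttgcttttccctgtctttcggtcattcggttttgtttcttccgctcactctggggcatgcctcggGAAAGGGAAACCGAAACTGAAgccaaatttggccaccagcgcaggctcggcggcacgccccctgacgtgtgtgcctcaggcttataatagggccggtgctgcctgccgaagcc
HERC5: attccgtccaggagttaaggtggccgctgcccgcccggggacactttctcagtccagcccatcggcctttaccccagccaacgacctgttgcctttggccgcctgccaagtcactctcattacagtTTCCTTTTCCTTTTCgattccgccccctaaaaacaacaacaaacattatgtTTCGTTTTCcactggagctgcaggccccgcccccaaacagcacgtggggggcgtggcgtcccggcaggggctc
HERC6: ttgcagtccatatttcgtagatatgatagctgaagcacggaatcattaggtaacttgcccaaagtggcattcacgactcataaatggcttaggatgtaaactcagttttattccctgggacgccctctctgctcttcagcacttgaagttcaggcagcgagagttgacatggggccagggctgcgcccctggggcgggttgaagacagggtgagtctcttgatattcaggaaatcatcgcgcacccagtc
UBE2L6: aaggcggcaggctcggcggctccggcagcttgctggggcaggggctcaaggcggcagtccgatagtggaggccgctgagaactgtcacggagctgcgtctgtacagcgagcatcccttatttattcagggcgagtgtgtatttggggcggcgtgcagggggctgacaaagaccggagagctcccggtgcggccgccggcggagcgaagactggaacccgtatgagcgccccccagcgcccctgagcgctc

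The ISG15 run held 3 overlapping matches, and counting the start site as position 0 they filled -113 to -93. The HERC5 run held 3 matches on the opposite strand, a pair that overlapped at -124 to -110 and a further one at -73 to -65. HERC6 and UBE2L6 held none in this window. Among 22156 start windows of protein-coding genes (250 bases before to 50 after the start), 7.10% held at least 1 match and 17 windows, or 0.0767%, held 3 or more; the count of 3 was chosen after the sequences had been searched. The share with at least 1 match was 6.52% of the 9001 windows that a control peak overlapped and 7.49% of the other 13155. The same windows of the 4 genes held no AP-1 site (TGANTCA) and none of the SMAD sequences searched (CAGACA and the palindrome GTCTAGAC), which occurred in 6.16%, 15.2% and 0.217% of all windows, both strands counted. GC boxes (GGGCGG) lay in the windows of HERC5, HERC6 and UBE2L6 and not in that of ISG15, against 56.3% of all windows. A match describes letters only, and a window without one says nothing about binding elsewhere.

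IRF3 peaks marked ISG15, HERC5 and HERC6 in all 3 libraries and USP18 in control and guide 2. UBA7 and UBE2L6, the first 2 enzymes of the cascade, had no peak within 10 kb in any list. That made 4 of 6 genes in control, 3 of 6 in guide 1 and 4 of 6 in guide 2. Of all protein-coding genes, 60.1% were marked in control, 57.3% in guide 1, 60.0% in guide 2 and 55.9% in all 3, so 3 to 4 marked genes of 6 is close to the background. A gene with no peak in any library was also common, at 37.8% of protein-coding genes. The 4 members marked in control had a median percentile of 79.4 for their strongest peak, against 71.3 over all marked protein-coding genes. For the 3 members marked in guide 1 the values were 59.7 and 68.9, and for the 4 in guide 2 they were 56.5 and 71.5. The guide 1 median leaves out USP18, so these medians of 3 or 4 values do not cover the same genes.

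**Figure D1:**
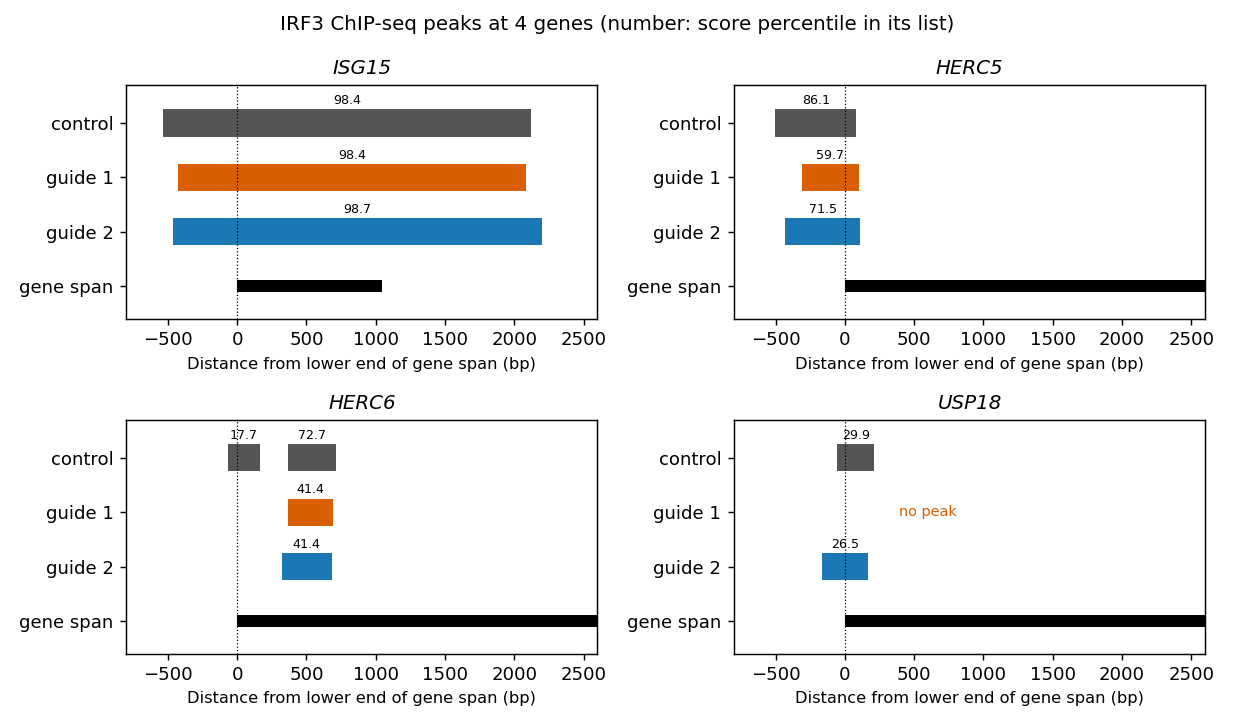
Peaks of each list at ISG15, HERC5, HERC6 and USP18, drawn to scale as distance in bp from the lower-coordinate end of the gene span (dotted line), with the gene span in black, cut off at the right edge for all but ISG15. Each bar is 1 peak and the number above it is its score percentile. The ISG15 peaks run over the whole gene, whereas the others are short and lie at or just inside the lower end.

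ISG15 (gene 9636, chromosome 1, 1013497 to 1014540) encodes the modifier and had the highest-ranked peak of the group in every list. The control peak ran from 1012965 to 1015615 (2651 bp) with an authors' score of 147.77. In guide 1 it ran from 1013071 to 1015578 (2508 bp, score 121.37), and in guide 2 from 1013037 to 1015696 (2660 bp, score 138.95). These scored above 98.4%, 98.4% and 98.7% of their lists and ranked 294, 270 and 246 within them. The peaks therefore overlapped at nearly the same extent and rank in all libraries. Each was among the widest of its list, with 22 wider control peaks, 21 wider guide 1 peaks and 25 wider guide 2 peaks. Each also contained the whole 1044 bp gene, from 532 bp (control), 426 bp (guide 1) and 460 bp (guide 2) before the start to 1075, 1038 and 1156 bp past the far end. Of all protein-coding genes, 0.330% lay wholly inside 1 peak in every list, and of the 1249 such genes of at most 2000 bp, 62 did (4.96%). A stronger peak than that of ISG15 was found within 10 kb of 356 protein-coding genes in control, and for the guides the numbers were 373 and 331. The midpoint lay 793, 827 and 869 bp past the start, so the peak did not centre on the GAAA repeats printed above, which it covered in all 3 libraries. Summits were not given in the lists.

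The peaks next to ISG15 lay just beyond the 10 kb limit and belonged in position to another gene. Each list had 1 at 11.5 kb and 1 at 12.4 kb before the ISG15 start, closest to HES4, a Notch-responsive transcription factor gene. The farther of them scored above 73.3% of the control list but 46.6% of guide 1 and 44.6% of guide 2. It was 1004 bp wide in control and 614 and 619 bp wide in guides 1 and 2. The closest protein-coding gene on the other side, AGRN, began 5830 bp from the midpoint of the control ISG15 peak.

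HERC5 (gene 51191, chromosome 4, 88457119 to 88506163), the ligase, carried 1 peak at its start in every list. The control peak ran from 88456618 to 88457200 (583 bp, score 74.88), the guide 1 peak from 88456808 to 88457219 (412 bp, score 43.53) and the guide 2 peak from 88456690 to 88457226 (537 bp, score 55.1). They scored above 86.1%, 59.7% and 71.5% of their lists. All covered the complete 250 base stretch printed above with its GAAA pairs, and the midpoints lay at -210, -106 and -161 from the start. The inner ends lay 81, 100 and 107 bp past the start, whereas the outer end reached farthest in control (501 bp before the start) and least in guide 1 (311 bp). The percentile was thus highest in control and lowest in guide 1, lower by 26.5 points in guide 1 and by 14.6 points in guide 2. Both differences use the same control library.

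HERC6 (gene 55008, chromosome 4, 88378852 to 88443097), the HERC5 relative upstream of it on the same chromosome, carried its shared peak inside the gene and not at the start. That peak lay at 88379220 to 88379565 in control (346 bp, score 56.99), 88379218 to 88379546 in guide 1 (329 bp, score 35.33) and 88379173 to 88379535 in guide 2 (363 bp, score 36.89), with midpoints 540, 530 and 502 bp past the start. It scored above 72.7% of the control list and above 41.4% of each guide list, lower by 31.3 points in both guides. The positions overlapped over most of their length, while the rank was above the middle of the control list and below the middle of each guide list. Exons and introns were not told apart in the annotation used.

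Control alone had a further, weak HERC6 peak over the start itself, at 88378783 to 88379018 (236 bp, score 27.17, above 17.7% of the list). It covered 27.6% of the printed 250 bases, and neither guide list had a peak there. Of the 1576 control peaks within 5 percentile points of it, 14.8% likewise overlapped no peak of either guide. Joining peaks less than 500 bp apart merged it with the stronger HERC6 peak, so that HERC6 then had 1 region in all libraries. At the 300 base start windows, peaks were present at ISG15, HERC5 and HERC6 in control and at ISG15 and HERC5 in guides 1 and 2, of the 4 genes with a window. Of all start windows, 40.6% were overlapped in control, 37.5% in guide 1 and 39.9% in guide 2.

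The lower ranks of HERC5 and HERC6 in the guide lists can be read against all control peaks. A percentile 10 or more points lower was found for 24.3% of the 15136 control peaks that overlapped a guide 1 peak and for 14.8% of the 16470 that overlapped a guide 2 peak. Among control peaks between percentiles 70 and 90, where these 2 peaks lay, the shares were 26.6% and 16.1%, with median changes of -3.19 points in guide 1 and -0.38 in guide 2. HERC5 and the inner HERC6 peak were past 10 points in both guides, and ISG15 moved by less than 1 point in each. The HERC5 peak was lower by 26.5 points in guide 1 and 14.6 in guide 2, and the inner HERC6 peak by 31.3 in each. No share was computed for falls of those sizes, so the shares above hold for the 10 point limit only. The share of control peaks lower by 10 or more points in both guides at once was not computed. ISG15, at percentile 98.4 in control, lay above that band and near the top of the scale. No share was computed for peaks of its rank, so its small change is not set against like peaks. The limit of 10 points was chosen after the values had been seen, and the guides share their control library. Whether the same ranks would recur in another control library was not tested.

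HERC6 and HERC5 are neighbours, with 14021 bp between their spans, yet they did not share a peak at 10 kb. The HERC5 peak lay 13.5 kb past the end of HERC6 in control, 13.7 kb in guide 1 and 13.6 kb in guide 2, just outside the limit. A further peak in each list, 17.3, 17.4 and 17.3 kb beyond HERC5, lay at the adjoining span ends of PIGY, PYURF and the HERC family gene HERC3. That peak scored above 84.6% of the control list, 79.9% of guide 1 and 86.7% of guide 2. Within one chromosomal neighbourhood, then, the HERC5 and HERC6 peaks ranked lower in both guide lists, whereas the HERC3 peak ranked lower in guide 1 and higher in guide 2.

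USP18 (gene 11274, chromosome 22, 18150170 to 18177397), the ISG15 protease and brake on interferon signalling, had a weak peak over the lower end of its span in 2 of the 3 lists. In control it ran from 18150115 to 18150381 (267 bp, score 31.81) and in guide 2 from 18150005 to 18150338 (334 bp, score 30.67), above 29.9% and 26.5% of the lists. The closest guide 1 peak on the chromosome was 86.6 kb away. The gene was thus marked in control and guide 2 and unmarked in guide 1, a pattern shared by 2.31% of protein-coding genes. Of the 1786 control peaks within 5 percentile points of the USP18 peak, 14.4% likewise overlapped a guide 2 peak and no guide 1 peak. The 2 Smad3 guides therefore did not show the same state at USP18, and the guide 1 list is the shortest of the 3. USP18 has a near copy on the same chromosome, the pseudogene USP41P (20363616 to 20377260), which had no peak within 10 kb in any list. Reads that fit both copies could be placed at either, and the treatment of such reads by the authors is not stated.

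UBA7 (gene 7318, chromosome 3, 49805209 to 49813953), the activating enzyme, and UBE2L6 (gene 9246, chromosome 11, 57551662 to 57567935), the conjugating enzyme, had their nearest peaks at other genes. For UBA7 the nearest peak was 18.2 kb away in each list, at the end of IP6K1, an inositol phosphate kinase gene, and scored above 86.8% of the control list, 84.9% of guide 1 and 89.9% of guide 2. The next, 42.3 kb away in control, lay at the end of TRAIP, a ubiquitin ligase gene. For UBE2L6 the nearest peak was 20.4 kb away in control and 20.5 kb away in each guide, at TIMM10, a mitochondrial import gene. It was split in control into 2 peaks above 39.6% and 19.5% of the list, and was a single peak in guide 1 (30.3%) and guide 2 (26.5%). Neither of the annotated UBE2L6 start windows was overlapped in any library. Both genes were thus unmarked in all 3 libraries, and no peak means only that none passed the authors' threshold.

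Other genes of the pathway were taken from a list of 13: further ISG15 ligases, proteases that also act on ISG15, the surface integrin that binds extracellular ISG15, and partners of USP18. Marked were 11 genes in control, 11 in guide 1, 10 in guide 2 and 10 in every library, beside shares of 60.1%, 57.3%, 60.0% and 55.9% of all protein-coding genes. The strongest peaks of the marked genes had median percentiles of 78.7, 72.3 and 78.7, and those of all marked protein-coding genes 71.3, 68.9 and 71.5. TRIM25, a ligase that also activates the RNA sensor RIG-I, had its strongest peak at the gene end (chromosome 17, control peak 56913784 to 56914463), above 96.5% of the control list, 97.1% of guide 1 and 96.6% of guide 2. ARIH1, a RING-between-RING ligase, reached 83.6%, 84.9% and 85.1%. SKP2, the F-box protein that targets USP18 for degradation, reached 88.6%, 86.9% and 80.7%. Each of these genes had a peak at its own end in every list and at similar rank.

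STAT2, which brings USP18 to the receptor, had a peak over its gene end above 78.7% of the control list, 60.5% of guide 1 and 68.0% of guide 2; its strongest guide 2 peak (76.7%) was another one nearby. The receptor chain gene IFNAR2 had weaker ones, above 22.9%, 36.0% and 21.5%, and IFNAR1 was at 67.5%, 72.3% and 75.8%. The strongest peak near USP5, above 94.0% of the control list, lay inside TPI1, a glycolysis gene, and the strongest control peaks near USP16 and ITGAL lay inside RWDD2B and ZNF768. USP2 was the single gene of this list whose mark differed between libraries, with a very weak peak in control (above 3.07%) and guide 1 (above 1.24%) and none in guide 2. USP14 and ITGB2 had no peak in any library.

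**Figure D2:**
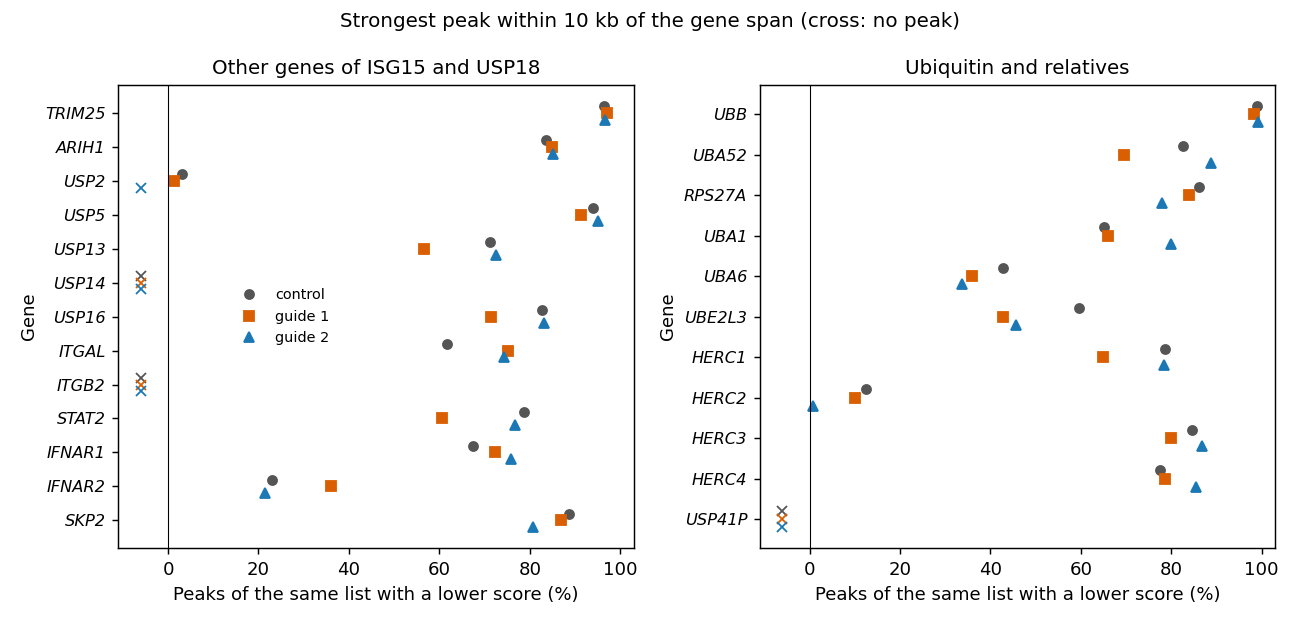
Score percentile (%) of the strongest peak within 10 kb of each gene in control (circle), guide 1 (square) and guide 2 (triangle), for 13 other genes of ISG15 and USP18 (left) and 10 genes of ubiquitin and relatives of the conjugation enzymes with the pseudogene USP41P (right); a cross left of 0 means no peak. TRIM25 and UBB are at 96.5% or higher in each list, and USP2 is the only gene shown whose mark differs between libraries.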

How the data were processed

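IRF3 ChIP-seq peak lists of 3 BT549 libraries (control guide, Smad3 guide 1, Smad3 guide 2) were used, 1 list per library as deposited. Per the submitters' processing notes, the tools were Bowtie2 2.2.2.6 and MACS2 2.1.0 and the build was hg38, with no roles given; an input library, read filters and thresholds are not given in the sources used here. Each peak has a score that the authors deposited with no stated scale, so scores were ranked within a list only. Overlaps needed at least 1 bp, and peaks that overlapped or touched were merged into regions. Gene spans and start windows came from RefSeq GRCh38.p14 and were matched by symbol (30 of 30 genes). Scripts used Python 3.11.15, pandas 2.3.3, numpy 2.4.6 and scipy 1.17.1, and the interval steps were tested on artificial intervals. From the pathway and relatives lists the text names those marked in all libraries with the 4 highest control percentiles, those whose mark differs between libraries, and others chosen after their values were seen. One gene of the relatives list is not reported here. The gene members and lists were chosen with earlier results of these data known. Windows of 2 and 50 kb, gene ends only, peaks above the median, lists of equal length, the 5000 highest-scoring peaks, closest gene only and other overlap rules were tried. The lists carry no counts, so the precision that depth gives is unknown.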

Additional observations from a re-analysis of the deposited data

How the results depend on the processing

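USP18 was marked in control and guide 2 alone at windows of 2, 10 and 50 kb, at gene ends, with lists of equal length and with the closest gene only. It was unmarked in all 3 lists with peaks at or above the median score and with the 5000 highest-scoring peaks. At 50 kb UBA7 and UBE2L6 became marked through peaks at other genes, so that 5 of the 6 genes were marked in guide 1 and 5 in all libraries. Counted gene by gene, 10 regions were then shared by all 3, and the region at the HERC5 start was counted for both HERC5 and HERC6. With peaks at or above the median score, control marked 3 genes and guide 1 and guide 2 marked 2 each, with 2 marked in all libraries. The 1 region not shared by all was that of HERC6, which stayed marked in control alone. With the 5000 highest-scoring peaks, guide 1 and guide 2 marked 1 gene each, ISG15, which was the 1 gene marked in all libraries, while control still marked 3. Joining peaks within 500 bp left 1 region missing from a library, as did counting each gene once (added after seeing the data). Of 33 alternative percentiles, 9 moved beyond the interval set for them, by at most 3.90 points, when ranked among peaks near protein-coding genes. That interval does not measure the spread between libraries. No paired analysis was possible because each group has 1 library and no test was made. The unknown depth limits what an absent weak peak can show.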

Other observations

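Of 10 genes of ubiquitin itself and of ubiquitin-side relatives of the conjugation enzymes, 10 had a peak within 10 kb in every library, beside 55.9% of all protein-coding genes. The other entry of that list, USP41P, is the unmarked pseudogene copy of USP18. The strongest peaks of the 10 genes had median percentiles of 78.2 in control, 67.8 in guide 1 and 79.1 in guide 2. Those of all marked protein-coding genes were 71.3, 68.9 and 71.5. The lowest of the 10, near HERC2, was above only 12.4%, 10.1% and 0.811% of the peak lists. The polyubiquitin gene UBB had the strongest peak, above 98.9% of the control list, 98.3% of guide 1 and 99.1% of guide 2, which is close to the rank of ISG15. UBA1, the ubiquitin activating enzyme and counterpart of UBA7, had a peak at its own gene end (above 65.2%, 65.9% and 53.2% of the control, guide 1 and guide 2 lists), where UBA7 had none. A stronger guide 2 peak (79.9%) lay elsewhere on the UBA1 span or within 10 kb of it. UBE2L3, the closest relative of UBE2L6, was marked too, but its strongest control peak lay inside YDJC, 5767 bp away. The strongest control peak near HERC1 likewise lay inside another gene, FBXL22, 7702 bp away. RPS27A, a ubiquitin and ribosomal fusion gene, was above 86.1%, 83.9% and 77.9%.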
